A study of Mus musculus with 19 samples.

Results

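Ring1B, also called Rnf2, is the ubiquitin ligase subunit of Polycomb repressive complex 1 (PRC1). Its binding in mouse embryonic stem cells (ESC) was compared between cells with a control hairpin and cells in which the nucleoporin Nup153 was knocked down. The comparison rests on 3 lists of Ring1B peaks, 1 from control cells with 11916 peaks, 1 from hairpin 2 with 15604 peaks and 1 from hairpin 4 with 12117 peaks. Peaks of the 3 lists that shared at least 1 base were merged into 26932 regions, and each region was classed by the lists that held a peak in it. The 7 lists of the series that were read here hold 71625 peaks in all. The class found in control only had 5030 regions, the class found in both hairpins and not in control had 1564, and the class found in all 3 lists had 3792.

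All 3 lists came from E14, a mouse ESC line, grown on irradiated mouse embryonic fibroblasts, transduced with lentivirus and selected with puromycin. The control carried a scrambled hairpin, and the 2 knockdown groups carried hairpin 2 or hairpin 4 against Nup153. Each list came from 1 chromatin immunoprecipitation (ChIP) library, called against an IgG library. The hairpins act in the whole culture, the labels do not say that any library came from a clone, and the feeder cells are a source of chromatin and RNA that the files do not separate. RNA was sequenced from the same 3 kinds of cells, with 1 library each, and from 2 libraries of neural progenitors (NeuP). Lists of Cbx7 and Oct4 ChIP in control ESC and of Nup153 DamID in ESC were used to describe the regions.

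PRC1 places a single ubiquitin on histone H2A and compacts chromatin, and with PRC2, which methylates histone H3, it keeps developmental genes silent. Canonical PRC1 holds a CBX protein such as Cbx7, which reads the PRC2 mark, while variant PRC1 holds Rybp or Yaf2 in its place and can be recruited to unmethylated CpG islands by Kdm2b. In ESC the known targets are HOX clusters and other genes for developmental transcription factors and signals. Nup153 sits in the nuclear basket of the pore, on the side that faces chromatin. In DamID a tagged protein carries a bacterial adenine methylase, which marks the DNA it came close to.

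Because CpG-rich starts are where PRC1 is best known to bind, the 250 bases before the start of 1 gene of each class are shown, with every CG in capitals. They come from RefSeq (GRCm38.p6), 5′ to 3′ on the gene's strand, and the gene is the one with the widest Ring1B region over its start in that class that had a single entry in the table. The whole table of 32851 such sequences had a median of 6 CG in these bases, and 92.1% of them held at least 1. Tcl1 was covered by Ring1B in control only, and its bases (chr12:105222738-105222987, minus strand) hold 7 CG, a number reached by 46.3% of promoters.
Tcl1: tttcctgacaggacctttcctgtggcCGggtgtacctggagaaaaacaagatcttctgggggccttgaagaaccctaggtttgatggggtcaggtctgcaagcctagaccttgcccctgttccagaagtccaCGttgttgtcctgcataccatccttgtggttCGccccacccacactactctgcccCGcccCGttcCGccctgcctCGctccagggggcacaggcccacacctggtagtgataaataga
Cbx8 was covered in both hairpins and not in control, and its bases (chr11:119040914-119041163, minus strand) hold 22 CG, a number reached by 14.8% of promoters.
Cbx8: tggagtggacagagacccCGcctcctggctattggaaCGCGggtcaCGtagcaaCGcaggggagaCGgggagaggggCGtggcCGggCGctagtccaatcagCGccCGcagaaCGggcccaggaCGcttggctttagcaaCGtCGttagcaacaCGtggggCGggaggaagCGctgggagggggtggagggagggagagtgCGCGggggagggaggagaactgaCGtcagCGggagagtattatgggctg
Hoxa7 was covered in all 3 lists, and its bases (chr6:52218574-52218823, minus strand) hold 7 CG.
Hoxa7: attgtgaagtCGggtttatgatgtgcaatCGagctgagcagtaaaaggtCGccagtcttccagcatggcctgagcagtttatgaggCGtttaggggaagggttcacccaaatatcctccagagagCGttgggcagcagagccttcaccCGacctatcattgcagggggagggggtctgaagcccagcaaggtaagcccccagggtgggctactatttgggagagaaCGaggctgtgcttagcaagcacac
Of the 3, Cbx8 alone stands well above the median of the table, and the other two lie near it. Of the 24016 genes of the RNA table, 59.2% had exactly 1 entry, and base composition was not compared between classes.

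The 3 libraries differed in depth. Per the file headers, the control library had 4.99 M tags, hairpin 2 had 30.8 M and hairpin 4 had 9.95 M, so hairpin 2 was 6.16 times and hairpin 4 was 1.99 times as deep as control. A candidate peak needed at least 7 tags in control, 18 in hairpin 2 and 9 in hairpin 4, which is 14.0, 5.85 and 9.05 tags per 10 M. The control threshold was therefore 2.40 times that of hairpin 2 and 1.55 times that of hairpin 4. The share of tags in peaks was 3.67% in control, 3.54% in hairpin 2 and 2.25% in hairpin 4. A region without a control peak is one without a peak past this threshold, so depth and Nup153 level cannot be told apart for regions that only the hairpins hold. Regions in control only were called from the shallowest library, so the 2 cannot be told apart for them either.

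The 3 lists differed from one another about as much within the knockdown as between knockdown and control. Of the control peaks, 45.2% were found in hairpin 2 and 45.5% in hairpin 4. Of the hairpin 4 peaks, 44.4% were found in control and 47.7% in hairpin 2. Of the hairpin 2 peaks, 32.2% were found in control and 34.3% in hairpin 4. The control list thus shared nearly as large a part with each hairpin as the hairpins shared with each other. Beside the 5030 regions in control only, 4830 were in hairpin 4 only and 9015 in hairpin 2 only, while 1220 were in control and hairpin 2 and 1481 in control and hairpin 4. With 1 control library the counts have no replicate check, and no test between conditions was made on them. The size of the class without control turns on both hairpins being required, since hairpin 4 alone gave 6733 regions against control and hairpin 2 alone gave 10585.

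**Figure D1:**
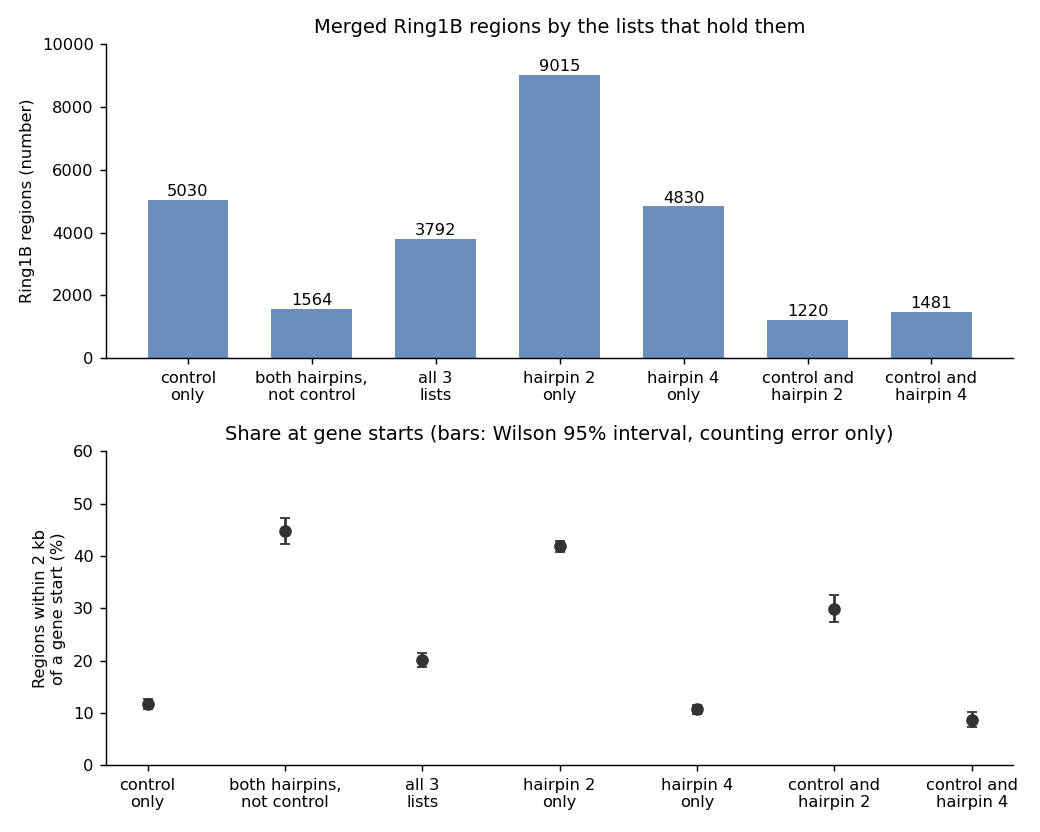
Number of merged Ring1B regions by the lists that hold them (top) and the share of each class within 2 kb of a gene start (bottom, points with Wilson 95% intervals that cover counting error only). The class in control only (5030) is close in size to the class in hairpin 4 only (4830), and the classes with a hairpin 2 peak have the higher shares at starts.

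Sharing between lists changed along the deposited order of the peaks, a rank whose basis the headers do not state. In the first 10% of the control list 98.1% of peaks were found in hairpin 4 and 91.7% in hairpin 2. In the last 10% of it 17.7% and 27.8% were found there. The hairpin 4 list behaved alike, with 97.7% of its first 10% and 11.96% of its last 10% found in control. The hairpin 2 list began lower, at 71.0% found in control and 79.9% in hairpin 4, and ended at 7.56% and 7.94%. Regions held by 1 list thus came mostly from the later parts of the lists. When only the first 5000 peaks of each list were used, an alternative chosen after seeing the data, the classes had 1482 regions in control only, 593 in both hairpins and not in control and 1899 in all 3.

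**Figure D2:**
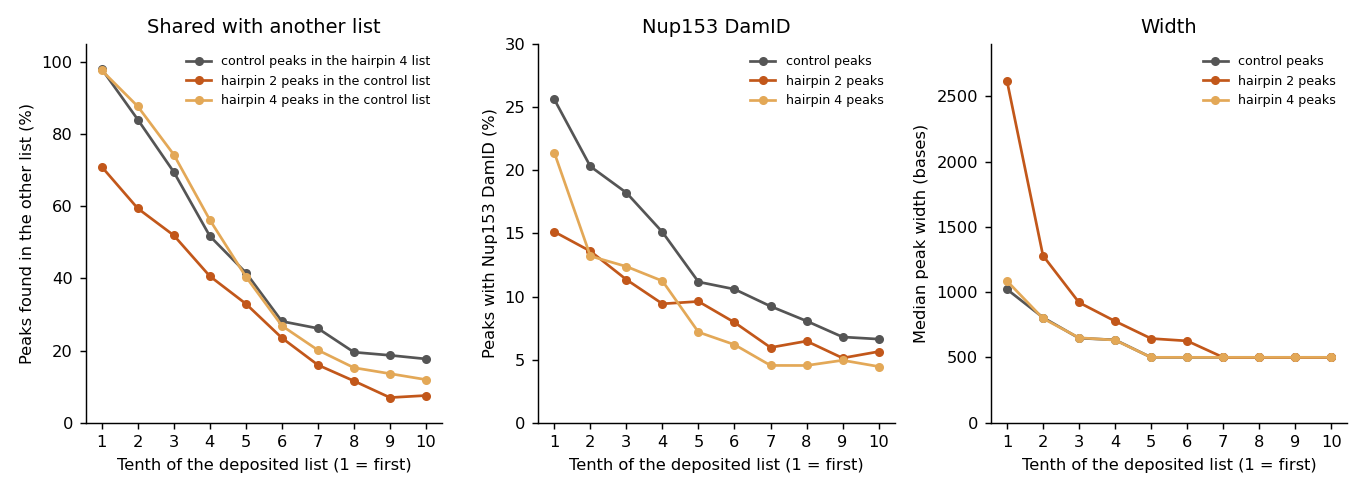
Peaks of each Ring1B list by steps of 10% of the deposited order: the share found in another list (left), the share with Nup153 DamID (middle) and the median width in bases (right). The share of control peaks found in hairpin 4 falls from 98.1% in the first step to 17.7% in the last and that of hairpin 4 peaks found in control from 97.7% to 11.96%, and control lies above both hairpins in the middle panel in every step.

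Widths followed hairpin 2. Peaks were called from windows of 500 bases, and the median width was 501 bases in control, 630 in hairpin 2 and 501 in hairpin 4. Peaks wider than 5 kb numbered 4 in control, 286 in hairpin 2 and 15 in hairpin 4. Together the peaks covered 7.93 Mb in control, 15.7 Mb in hairpin 2 and 8.16 Mb in hairpin 4. In the regions of all 3 lists, hairpin 2 peaks covered more bases than control peaks in 64.7% of 3792 regions, with a median ratio of 1.23. Hairpin 4 peaks covered more than control peaks in 44.7% and fewer in 40.3%, with a median ratio of 1.00. The wider domains were thus mostly those of hairpin 2, the deepest library. Hairpin 4 peaks matched those of control in the median, but 206 of them were wider than 2 kb, against 143 in control. Of the regions of 1 list, 80.9% of those in control only, 87.2% of those in hairpin 4 only and 61.5% of those in hairpin 2 only were exactly 501 bases wide. Regions over 2 kb numbered 2, 0 and 280 in these classes, so hairpin 2 also held wide regions of its own. Regions of 2 or 3 lists are wider in part because merging joins peaks, with medians of 852 bases for both hairpins and not control and 1014 for all 3 lists.

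Regions in control only lay farther from gene starts than regions in both hairpins and not control. Most regions of both classes were beyond 2 kb of a start. Within 2 kb of a start were 588 of 5030 regions in control only, or 11.7% (Wilson 95% interval 10.8 to 12.6). The share was 44.8% (42.3 to 47.2) in both hairpins and not control and 20.1% (18.8 to 21.4) in all 3 lists. These intervals cover counting error only. Hairpin 2 alone had 41.8% and hairpin 4 alone 10.7%, so the 2 hairpins differed in this share as much as hairpin 2 and control did. The median distance from a region to the nearest start was 22242 bases in control only, 4697 in both hairpins and not control and 18911.5 in all 3. A gene body was touched by 49.6%, 59.7% and 45.3% of the 3 classes. Without hairpin 2, the regions in hairpin 4 and not control had 20.4% at starts.

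The widest regions over a gene start in control only were narrow and held by single peaks. The widest, 1733 bases at chr12:106460188-106461920 (mm9), covered the start of Tcl1, a coactivator of Akt that is highly expressed in ESC, and neither hairpin had a peak in it. Tcl1 had 38.6 FPKM (fragments counted per transcript, scaled for its length and the library's depth) in control, 39.6 in hairpin 2 and 44.3 in hairpin 4. The next 4 regions, between 1085 and 1243 bases wide, covered the starts of Ppat, a purine synthesis enzyme, the non-coding 1700057H15Rik, Shkbp1 and Mir3063. None of these 5 held Cbx7 or Oct4, and the Ppat region held a Nup153 DamID site. Apart from 1700057H15Rik, listed at 0 in all 3 ESC libraries, these genes were expressed in control, between 17.0 FPKM for Shkbp1 and 45.5 FPKM for Mir3063.

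In both hairpins and not control the widest region lay over the PRC1 gene Cbx8 and the next ones over developmental genes. Each was a broad domain in hairpin 2 and 1 or more narrow peaks in hairpin 4. The widest was 14556 bases over the start of Cbx8, which encodes a CBX subunit of canonical PRC1 (chr11:118895626-118910181, mm9). There hairpin 2 had 1 peak of 14556 bases and hairpin 4 had 4 peaks of 2142 bases in all. Cbx8 had 3.98 FPKM in control, 2.52 in hairpin 2 and 2.61 in hairpin 4. The region of 8922 bases at 2210019I11Rik also covered the start of Pdx1, a homeobox gene of the pancreas. Hairpin 2 covered all of it, hairpin 4 covered 1683 bases with 3 peaks, and control had none. The others covered Neurog2, a proneural factor (8513 bases), Tlx1 (8116), Meis2 (7870) and Barx1 (7821), the last 3 all homeobox genes. All 6 regions held Cbx7 in control cells, so Polycomb was listed at these loci in the control condition in another ChIP.

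The widest regions in all 3 lists were HOX clusters and other homeobox loci. The HOXB region spanned 58287 bases (chr11:96138314-96196600, mm9) with the starts of Hoxb4, Hoxb5, Hoxb6, Hoxb7, Hoxb8 and Mir10a. Control held 4 peaks of 3358 bases in it, hairpin 4 held 7 peaks of 4820 bases and hairpin 2 held 1 peak over the whole span. The HOXA region of 39657 bases around Hoxa7 (chr6:52151808-52191464, mm9) was covered more evenly, with 9 peaks of 20189 bases in control, 11 peaks of 24336 bases in hairpin 4 and the whole span in hairpin 2. The next were the HOXC region at Hoxc11 and Hotair (23895 bases), Dlx1 with Dlx2 (20871), Six3 (20693) and Uncx (20323). At these 4, control covered between 3880 and 8025 bases and hairpin 4 between 2817 and 10102. Control covered more than hairpin 4 at Hoxc11 and Uncx and less at the other 4 loci. Hoxb5, Hoxa7, Hoxc11 and Uncx were at 0.41 FPKM or less in every ESC library.

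Regions with a control peak overlapped Nup153 DamID sites more often than regions without one. The share was 10.3% (Wilson 95% interval 9.49 to 11.2) of 5030 regions in control only, against 2.94% (2.50 to 3.46) of 4830 regions in hairpin 4 only and 5.26% (4.82 to 5.74) of 9015 in hairpin 2 only. It was 5.95% (4.88 to 7.23) in both hairpins and not control and 17.4% (16.3 to 18.7) in all 3 lists. Control with hairpin 2 had 15.7% and control with hairpin 4 had 13.0%. The 4 classes that held a control peak were thus all above the 3 that did not. The intervals, which cover counting error only, do not overlap between classes with and without a control peak. All 4 classes with one draw on the same control list. The control list stands on 1 library, so this order has no replicate check.

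Control only also lay above the classes without a control peak within strata of position, width and rank, but not clearly among regions with Cbx7. Within 2 kb of starts, 23.6% of the regions in control only, 8.11% of those in hairpin 4 only, 7.53% of those in hairpin 2 only and 8.43% of those in both hairpins and not control overlapped a Nup153 site. Regions in all 3 lists had 18.5% there, below control only. Beyond 2 kb the shares were 8.53%, 2.32%, 3.62% and 3.94%. Among regions of 501 bases or less, control only had 8.48% and hairpin 4 only 2.80%. Among regions with Cbx7, control only had 6.19% (4.00 to 9.46), both hairpins and not control 4.32% (3.01 to 6.17), hairpin 4 only 3.61% (1.91 to 6.73) and hairpin 2 only 3.31% (2.61 to 4.19), and the intervals overlap. In the first 5000 peaks of each list, chosen after seeing the data, control only had 21.1% and hairpin 4 only 7.09%. Seen from the DamID list, 39.99% of 3516 Nup153 sites overlapped a control Ring1B peak, 37.1% one of hairpin 2 and 28.7% one of hairpin 4, and the hairpin 2 list was the largest of the 3. Depth differed between these libraries, and its part in these shares was not tested.

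Cbx7 overlap ordered the classes differently. Cbx7 ChIP in control cells overlapped 48.1% of the regions in all 3 lists and 41.4% (39.0 to 43.9) of those in both hairpins and not control, but 6.10% (5.47 to 6.80) of those in control only. Hairpin 4 only had 5.16% and hairpin 2 only 22.1%. Among 700 regions in both hairpins and not control that lay within 2 kb of a start, 56.1% held Cbx7, and among 588 such regions in control only, 6.63%. The Cbx7 library had 22.5 M tags, more than the control Ring1B library. Oct4 sites were in 20.3% of the regions in all 3 lists and in 1.33%, 2.62%, 1.03% and 0.60% of those in control only, in both hairpins and not control, in hairpin 2 only and in hairpin 4 only. Of the 1462 Oct4 sites, 67.9% overlapped a control Ring1B peak, 67.7% one of hairpin 2 and 62.2% one of hairpin 4. Ring1B peaks of NeuP overlapped 3.68% of the regions in control only, 14.2% of those in both hairpins and not control and 12.6% of those in all 3 lists.

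**Figure D3:**
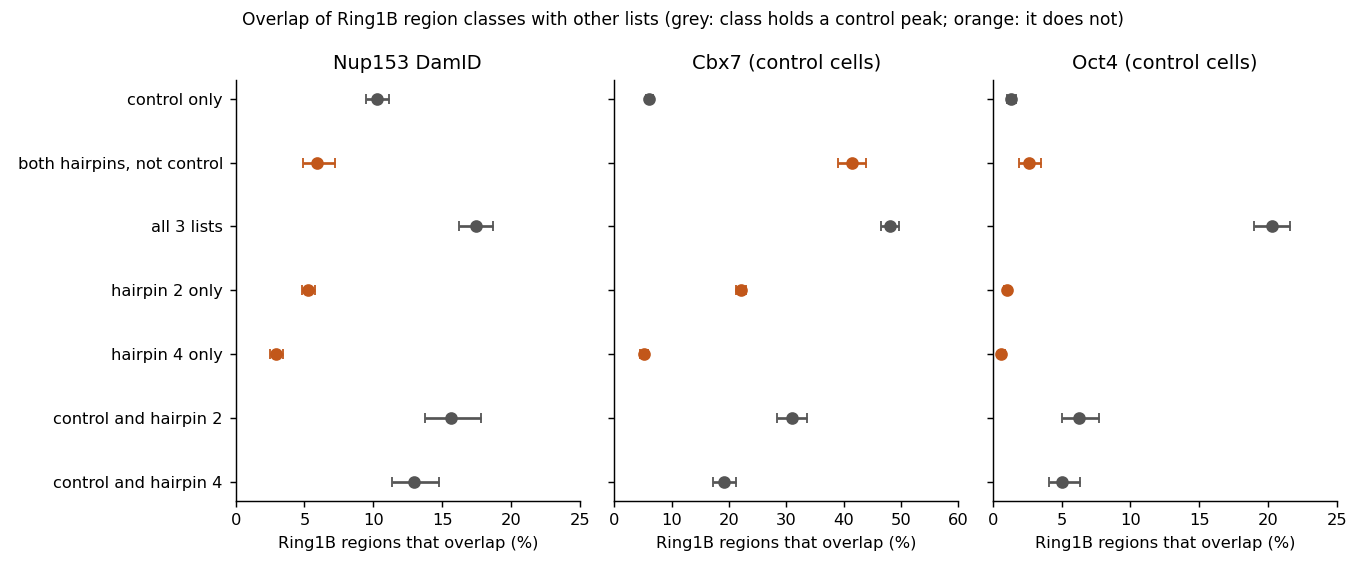
Share of the regions of each Ring1B class that overlap Nup153 DamID sites, Cbx7 peaks and Oct4 peaks, with Wilson 95% intervals for counting error (grey for classes with a control peak, orange for those without). For Nup153 every grey class lies above every orange class (10.3% or more against 5.95% or less), while for Cbx7 control only (6.10%) lies beside hairpin 4 only (5.16%).

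At the level of genes, 474 of 24016 genes had Ring1B within 2 kb of their start in control only, 818 in both hairpins and not control and 842 in all 3 lists. Another 3591 had it in hairpin 2 only, 435 in hairpin 4 only, 504 in control and hairpin 2 and 125 in control and hairpin 4. A gene can fall in another class than the merged region over it, since a domain may be covered in part. Six3, for example, had a hairpin 4 peak of 1041 bases near its start and no control peak there, although control held peaks elsewhere in the region. Cbx7 lay within 2 kb of the start in 7.81% of the genes in control only, 57.2% of those in both hairpins and not control and 69.1% of those in all 3, against 13.2% of all genes. Nup153 DamID sites lay there in 26.8%, 8.92% and 19.6%, against 5.91% of all genes.

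The developmental gene groups were covered by Ring1B in all 3 lists, and in most of them hairpin 2 covered the most genes. The exceptions were PAX genes, with 8 of 9 in each list, and GATA genes, with 5 of 6 in control and hairpin 2 and 4 in hairpin 4. Of 39 HOX genes, 25 had Ring1B at the start in control, 39 in hairpin 2 and 26 in hairpin 4. Of 104 other developmental homeobox genes the numbers were 75, 100 and 88, with 69 in all 3 lists. Of 50 developmental basic helix-loop-helix genes they were 15, 37 and 25, of 45 WNT pathway genes 12, 33 and 18, and of 47 axon guidance genes 10, 34 and 15. For all genes of the table, 8.10% had Ring1B in control, 23.96% in hairpin 2 and 9.24% in hairpin 4. In these 5 groups hairpin 4 held more genes than control, by 1 gene for HOX. Control and hairpin 4 held equal numbers of forkhead (18), SOX (10) and PAX (8) genes. Control held more for GATA genes, for PRC1 genes (6 against 4 of 23), for ribosomal protein genes (4 against 3 of 79), for BMP, Nodal and related genes, with 13 of 35 in control and 10 in hairpin 4, and for pluripotency genes, with 16 of 27 in control, 20 in hairpin 2 and 12 in hairpin 4.

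No gene of the HOX, homeobox, forkhead, SOX, PAX, GATA, T-box, basic helix-loop-helix, WNT or FGF groups had Ring1B in control only, a class that holds 1.97% of all genes and in which most of these groups would hold few or none at that share. The class in both hairpins and not control holds 3.41% of all genes. Both hairpins and not control held 18 of the homeobox genes, of which Six3, Nkx2-2, Mnx1 and Pdx1 had the widest peaks, and 4 HOX genes, Hoxa4, Hoxa10, Hoxb7 and Hoxd11. At Nkx2-2, which patterns the ventral neural tube, the hairpin 2 peak was 16941 bases wide and the widest hairpin 4 peak 3468. The class also held 11 basic helix-loop-helix genes, widest at Neurog2, Hand1, Neurod2 and Ptf1a, and 10 WNT pathway genes, widest at Wnt5a, Wnt1, Fzd1 and Wnt2b. It held Foxf1 and Foxq1 among the forkhead genes, Sox14 and Sox21, and T and Tbx4 of the T-box genes. Of the signals, it held Fgf3, Fgf12 and Fgf15, Bmp6 and Bmp8a, and Shh, Ihh and Notch1. At Shh the hairpin 2 peak was 9005 bases wide and the widest hairpin 4 peak 709. Of the genes named here, Notch1 and Bmp8a had no Cbx7 at the start.

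Ring1B in control only was found for 1.97% of all genes. Of the listed genes it held Tcl1 and Sall4 of the pluripotency genes, Id2 of the BMP group, Cbx7 of the PRC1 genes, Ephb3 of the axon guidance genes, Kcnj13 of the potassium channels, and Rpl4, Rpl22 and Rps10 of 79 ribosomal protein genes. With 2 of 27 pluripotency genes, 3 of 79 ribosomal protein genes and 1 in each of the other groups, these counts are too small to set a group apart from all genes. Apart from Tcl1 (1733 bases) and Sall4 (676 bases), each had a control peak of 501 bases. Most of these genes were well expressed, with 21.1 FPKM in control for Sall4, a zinc finger factor of ESC, and 2085 FPKM for Rpl4. Kcnj13 was listed at 0 in the 3 ESC libraries.

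**Figure D4:**
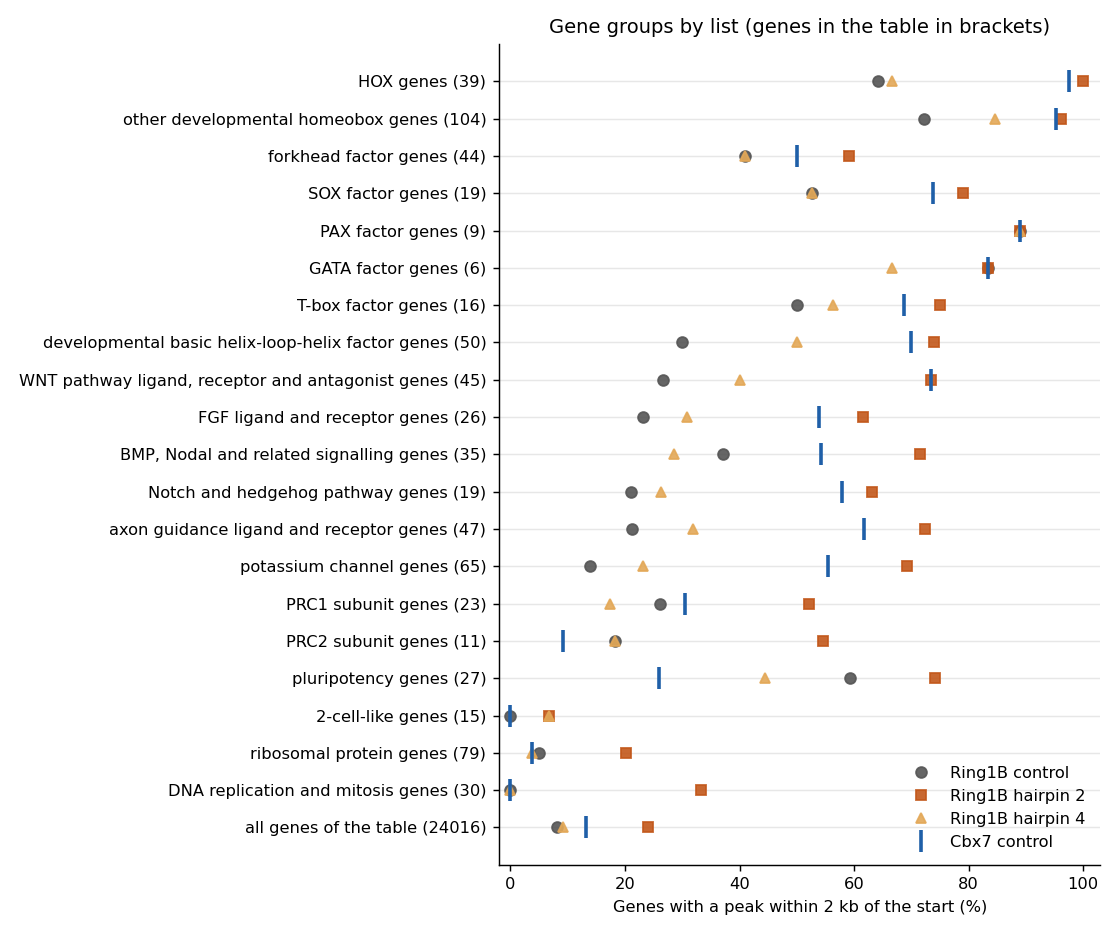
Share of the genes of each group with a peak within 2 kb of the start, for the 3 Ring1B lists and Cbx7, with the number of genes in brackets. Hairpin 2 has the highest share of the Ring1B lists in most groups, and hairpin 4 lies above control for homeobox (84.6% against 72.1%) and below it for pluripotency genes (44.4% against 59.3%).

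Genes of the Polycomb complexes were themselves listed with Ring1B. Of 23 PRC1 genes, 12 had Ring1B at the start in hairpin 2, 6 in control and 4 in hairpin 4. Phc1, a polyhomeotic subunit, and Rybp, of variant PRC1, were in all 3 lists. The Phc1 peaks were 2524 bases wide in control, 3040 in hairpin 2 and 3011 in hairpin 4, close to equal over the 3 lists. Bcor, Bmi1 and Cbx2 were in control and hairpin 2, Cbx8 in both hairpins and not control, Cbx7 in control only and Pcgf2 in hairpin 4 only. Of 11 PRC2 genes, Aebp2 was in all 3 lists, Ezh2, the methyltransferase, in both hairpins and not control, and Jarid2 in control and hairpin 2. The RNA of Rnf2, which encodes Ring1B, was 58.6 FPKM in control, 54.6 in hairpin 2 and 58.8 in hairpin 4. None of the PRC1 and PRC2 genes passed limma's threshold of an adjusted p of 0.05, and the smallest was 0.856.

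Nup153 RNA was 39.4 FPKM in control, 20.9 in hairpin 2 and 17.4 in hairpin 4. Both knockdown libraries were below control, by a log2 change in log2(FPKM + 1) of -1.01 ± 0.55 (SE) in the limma fit, with an adjusted p of 0.897. With a single RNA library, the control was given the spread estimated from the hairpins, treated as 2 replicates, and from NeuP. The labels do not say that the libraries came from separate cultures, so p-values measure only the spread between these samples. RNA depth recovered from the values was between 25.4 and 31.2 M reads for the 3 ESC libraries. The 8 ESC markers summed to 1557 FPKM in control, 1572 in hairpin 2 and 1767 in hairpin 4, and none of them was under 1 FPKM in all 3 libraries. The 5 endoderm markers summed to 22.6, 31.9 and 44.1 FPKM in the same order, the 5 neural progenitor markers to 7.49, 10.9 and 12.8, and the 9 fibroblast markers to 237, 259 and 255, with Lum at 0 in all 3. The sums of ESC, endoderm, neural and fibroblast markers were all above control in both hairpins, but not every marker was. Of the ESC markers, Nanog (246, 335 and 373 FPKM in control, hairpin 2 and hairpin 4), Zfp42, Klf4, Esrrb and Sox2 were above control in both. Pou5f1 (543, 476 and 501) and Dppa5a (432, 356 and 427) were below control in both, and Tdgf1 in hairpin 2 only. Of the endoderm markers, Afp alone was below control in both, at 0.152, 0.078 and 0.038 FPKM. Over all tested genes, both hairpins were above control for 55%. Most of the neural sum came from Nes, at 6.34, 8.45 and 8.95 FPKM in control, hairpin 2 and hairpin 4. Fabp7 was at 0 in control and hairpin 2 and at 1.66 FPKM in hairpin 4. Most of the fibroblast sum came from Vim (100.2 FPKM in control) and Fn1 (131 FPKM), while Dcn had 0.044 FPKM in control and 0 in both hairpins and Thy1 had 2.67, 2.28 and 2.34 FPKM. The 4 fibroblast markers under 1 FPKM in every ESC library were Postn, Dcn, Lum and Col3a1. The part of these markers in the RNA results was not tested.

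No gene was called in the knockdown. Of 13750 genes tested with limma and Benjamini-Hochberg adjustment, 0 passed (0% called) and 814 fell below 0.05 before adjustment. The adjusted p was 0.825 at its smallest. With voom on the recovered reads 0 were called, and 481 fell below 0.05 before adjustment. No gene of any Ring1B class was therefore shown to change. The median log2 change was 0.10 over the 368 tested genes with Ring1B in control only, 0.09 over 566 in both hairpins and not control and 0.13 over 542 in all 3 lists, against 0.08 over all tested genes. The lower quartiles of these classes were -0.10, -0.07 and -0.03 and the upper quartiles 0.29, 0.30 and 0.37. The 98 genes in control and hairpin 4 had the highest median, 0.23, with 0.22 for hairpin 2 and 0.22 for hairpin 4, which are both set against the same control library. In bulk RNA, fewer cells that express a gene and less RNA per cell cannot be told apart.

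Genes in all 3 lists were above control in both hairpins more often than all genes, and the other classes of the comparison lay nearer to them. Both hairpins were above control for 54.1% of the genes in control only, 56.9% of those in both hairpins and not control and 62.5% of those in all 3, against 55% of all tested genes, and for 60.2% of those in control and hairpin 4. Genes are not independent replicates and share 1 control library, and the gaps were not tested. Both were below control for 30.7%, 26.0% and 23.4%, against 29.5%. Higher by at least 2-fold with each hairpin were 2 of 368 genes in control only, 1 of 566 in both hairpins and not control and 5 of 542 in all 3, against 0.305% of all tested genes. Lower by at least 2-fold with each were 0, 2 and 1 genes, against 0.16%. These counts are too few to set any class apart.

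Levels of RNA separated the classes more than its changes did. Over all genes of a class, the median in control was 8.26 FPKM for Ring1B in control only, 0.97 for both hairpins and not control and 0.67 for all 3 lists, against 0.83 for all genes. In hairpin 2 these medians were 8.41, 1.37 and 0.96 FPKM, and in hairpin 4 they were 9.19, 1.27 and 0.91. Under 1 FPKM in control were 26.2% of the genes in control only, 50.5% of those in both hairpins and not control and 54.2% of those in all 3. Genes with Ring1B in control only were thus mostly expressed genes, and the order of the 3 classes was the same in each of the 3 libraries. Control only was not alone in this. The median in control was 7.2 FPKM for control and hairpin 4 and 4.3 for control and hairpin 2. It was 4.0 FPKM for hairpin 2 only and 3.1 for hairpin 4 only. In NeuP against control, a comparison that shares the control library, limma called 12.2% of the tested genes in control only higher and 37.8% lower, against 18.3% and 24.9% of all tested genes. It called 27.6% of those in both hairpins and not control higher and 26.7% lower, and 25.8% and 31.9% of those in all 3 lists. The shares were 14.3% and 50.0% in control and hairpin 4 and 15.0% and 31.2% in hairpin 4 only. They were 24.4% and 28.7% in control and hairpin 2 and 19.8% and 24.4% in hairpin 2 only.

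**Figure D5:**
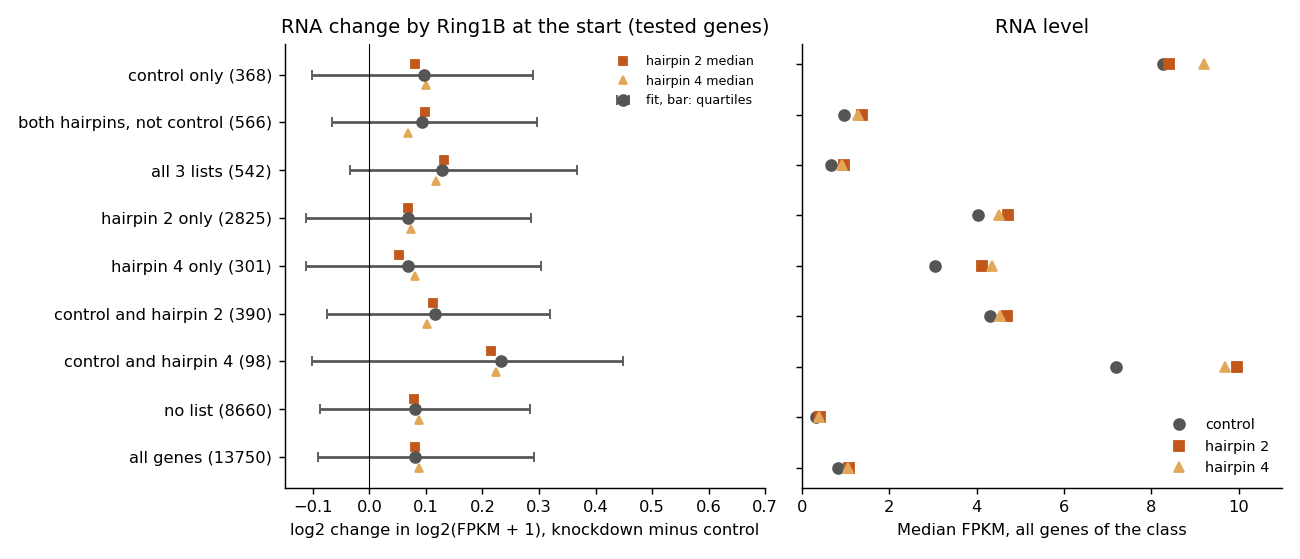
Left: fitted log2 change (knockdown minus control) of tested genes by the Ring1B lists at their start, with the quartiles as bars, the medians of each hairpin and the number of genes in brackets. Right: median FPKM over all genes of each class in the 3 ESC libraries. The medians of the changes lie between 0.07 and 0.23 in every class, and genes with Ring1B in control only have the highest median level in control (8.26 FPKM).

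The genes that differed most in the class in control only carried peaks of 501 to 820 bases. Highest was C330021F23Rik, with 1.71 FPKM in control, 5.59 in hairpin 2 and 5.11 in hairpin 4, a log2 change of 1.23 ± 0.15 (SE). Zc3h4, a zinc finger gene, had 3.87, 9.73 and 9.81 FPKM, a change of 1.15 ± 0.19. Both hairpins were above control for these genes and for Sh3gl3, Atp6ap1l, Gm20604 and 1700101E01Rik, with changes of 0.79 to 0.89. Lowest was Id2, an inhibitor of helix-loop-helix factors that responds to BMP signals, with 24.4 FPKM in control, 9.75 in hairpin 2 and 11.8 in hairpin 4, a change of -1.12 ± 0.37. Id2 was the only one of the 12 with Cbx7 at its start. Ifi30, a lysosomal reductase, had 260 FPKM in control, 132 in hairpin 2 and 130.04 in hairpin 4, and Calr, a chaperone of the endoplasmic reticulum, had 1033, 567 and 563. Both had a Nup153 site at the start, with changes of -0.98 ± 0.21 and -0.87 ± 0.37. S100a6, Pygl and Wfdc2 had changes of -0.91 to -0.83. The adjusted p from limma was at least 0.825 for all 12.

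In both hairpins and not control, Peg3, an imprinted zinc finger gene, was highest. It had 5.56 FPKM in control, 14.4 in hairpin 2 and 14.2 in hairpin 4, a log2 change of 1.22 ± 0.18 (SE), and peaks of 1800 bases in hairpin 2 and 863 in hairpin 4, with Cbx7 at the start. Tdh, the threonine dehydrogenase on which mouse ESC depend, had 16.5, 36.4 and 31.4 FPKM, a change of 0.99 ± 0.19, and a Nup153 site. Rbmxl2, Igdcc4, Prkar2b and Vcan, which encodes the matrix proteoglycan versican, had changes of 0.89 to 1.01. Lowest was Tmsb10, a thymosin that binds actin, with 120.1 FPKM in control, 70.0 in hairpin 2 and 33.6 in hairpin 4, a change of -1.29 ± 0.90. The 2 hairpins differed there by more than for the other genes named. Ciart, a circadian repressor, had 5.48, 1.55 and 1.84 FPKM (-1.27 ± 0.27) and Crb3, a polarity protein, 12.7, 5.02 and 5.15 (-1.18 ± 0.22). Sycp3, of the synaptonemal complex, had 148.6, 75.5 and 74.6 FPKM, and Ndrg1 and Hcfc1r1 had changes of -0.82 and -0.81. The adjusted p from limma was at least 0.825 for all 12.

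In all 3 lists the genes highest in the knockdown included 2 signals of the Nodal pathway. Nodal itself had 9.08 FPKM in control, 20.0 in hairpin 2 and 19.6 in hairpin 4, a log2 change of 1.05 ± 0.16 (SE), and its Ring1B peaks were 1598, 1964 and 904 bases wide in the same order. Gdf3, a related ligand, had 8.16, 18.3 and 18.5 FPKM, a change of 1.08 ± 0.16, and peaks of 1093, 1502 and 1409 bases. L1td1, an RNA-binding protein of ESC, had 14.9, 33.9 and 43.7 FPKM (1.31 ± 0.23), and Fam208a, part of the HUSH complex that silences repeats, 5.30, 14.3 and 16.4 (1.37 ± 0.64). Vegfc and the non-coding 4930461G14Rik had changes of 1.15 and 1.14. All 6 kept a peak in every list, and none of these 6 held Cbx7.

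Lowest in all 3 lists were Gata2 and Bhlhe41, the only ones of the 12 with Cbx7. Gata2, a factor of blood and trophoblast cells, had 7.26 FPKM in control, 3.15 in hairpin 2 and 1.57 in hairpin 4, a log2 change of -1.34 ± 0.35 (SE). Its Ring1B peaks were 636 bases wide in control, 16453 in hairpin 2 and 4125 in hairpin 4. Bhlhe41, a circadian repressor, had 4.33, 1.64 and 1.07 FPKM, a change of -1.19 ± 0.40, and peaks of 678, 4456 and 2655 bases. At both genes the peaks of each hairpin were wider than that of control and the RNA was lower in each hairpin. Gdf3 and Vegfc of the same class also had wider peaks in each hairpin, but their RNA was higher in each. The Vegfc peaks were 767, 1343 and 775 bases wide in control, hairpin 2 and hairpin 4. A link between peak width and RNA was not tested. Rpl36, Lgals3, the non-coding Neat1 and S100a13 had changes of -1.07 to -0.83. The adjusted p from limma was at least 0.825 for all 12, so none of these genes was called.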

How the data were processed

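The text uses the Ring1B peak lists of control, hairpin 2 and hairpin 4 ESC, the lists of Ring1B in NeuP, Cbx7, Oct4 and Nup153 DamID, and a table of RNA values. The submitters' processing notes name the build mm9 and the tools CASAVA 1.8.2, Bowtie2 2.1.0, STAR 2.2.0c and HOMER 4.6, with no role given for each. Per the file headers, Ring1B peaks were called in the histone style against an IgG library, at a Poisson p-value threshold of 0.001 and a fold of at least 4 over input and over the local region. The header of hairpin 2 names that library without a full path, those of control and hairpin 4 with one. The lists give start and end and no peak height. Per the labels the DamID list belongs to 2 Nup153 and 2 GFP samples. The sources used here do not say how they were combined. The RNA values were deposited by the authors as FPKM, with 1 transcript per gene.

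Peaks sharing at least 1 base were merged and regions classed by list, in Python 3.11.15 with pandas 2.3.3. A region or gene counted as having Ring1B at a start within 2 kb of it. Shares carry Wilson 95% intervals (SciPy 1.17.1), which treat regions as independent. Genes with at least 1 FPKM in at least 1 library were tested by limma-trend (limma 3.58.1, R 4.3.3) on log2(FPKM + 1), a scale that understates the change of low genes. The 5 libraries entered 1 fit of 3 groups with 2 residual degrees of freedom, tests were two-sided, and p-values were adjusted by Benjamini-Hochberg. All of the low FPKM values tested were whole reads within 0.1 of a read (100%), which gave each library's depth and allowed voom. The code was tested on simulated data. Promoter sequences were printed for the first gene of each class with a single RefSeq entry, outside chromosome 18.

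Named were the 6 widest regions over a start in each class, the 6 tested genes highest and the 6 lowest with 1 sign in both hairpins, members of gene lists, and Polycomb genes. Of these, 2 items are not reported here. The classes and gene lists were chosen with earlier results of these data known. Other overlap rules, widths, windows, pseudocounts, filters and normalizations and leaving out each library were tried. The deposited lists of Oct4 DamID and of Oct4 ChIP in knockdown cells were not used here.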

Additional observations from a re-analysis of the deposited data

How the results depend on the processing

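No paired analysis was possible because the control has 1 library and each hairpin stands on its own library, so no replicate number pairs a knockdown sample with a control. Joining regions within 1000 bases, requiring an overlap of 50% of the smaller peak, using peaks of 1 list and leaving out chromosome 8 kept the 3 class sizes within 1.5 times. With peaks of at least 1000 bases there were 346 regions in control only, 322 in both hairpins and not control and 381 in all 3, and with at least 2000 bases 35, 102 and 68. With the first 5000 peaks there were 1482, 593 and 1899. Leaving out 1 hairpin gave 6491 to 6527 in control only, 6733 to 10585 in the class without control and 5012 to 5340 in the class with all lists. Promoter shares in control only, in both hairpins and not control and in all 3 were 7.69%, 42.01% and 17.7% within 1 kb, 20.5%, 50.3% and 27.5% within 5 kb, and 1.83%, 27.4% and 12.6% with a start inside. For peaks of at least 1000 bases the shares of the last 2 were 56.5% and 44.4%. Leaving out 1 hairpin gave 10.9% to 16.4%, 20.4% to 42.2% and 15.7% to 22.4%.

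Genes called stayed at 0 except with no filter on low values, which called 230, of which 218 were under 1 FPKM in all 5 libraries. Genes at least 2-fold higher and lower were 388 and 65 with pseudocount 0.1, 1 and 4 with pseudocount 5, 23 and 45 with quantile normalization, and 665 and 89 with voom. With 1 library left out they were 42 to 115 and 22 to 74, the higher values where 1 hairpin was left out and only 1 library had to pass. The medians of the log2 change in the 3 classes, in the same order, were 0.063, 0.035 and 0.052 with pseudocount 5, 0.049, 0.047 and 0.050 with no filter, and 0.023, -0.0064 and 0.027 with quantile normalization, which took the median of all genes from 0.081 to 0.0018. The second turned its sign there. With pseudocount 0.1 the last 2 were 0.16 and 0.24, with voom 0.16 and 0.26. The median of all genes was 0.11 with pseudocount 0.1, 0.099 with voom, 0.045 with pseudocount 5 and 0.0043 with no filter. Genes in all 3 lists lay above it by 0.13 with pseudocount 0.1 and 0.16 with voom. The gap was 0.047 in the main fit and 0.0077 with pseudocount 5. Control only lay below all genes with pseudocount 0.1, with voom and without hairpin 4. Both hairpins and not control lay below them with pseudocount 5, with quantile normalization and without hairpin 2. Within 1 kb of a start the median in control only was 0.11, and within 5 kb it was 0.060 there and 0.12 in all 3. Leaving out 1 RNA library gave 0.080 to 0.10, 0.068 to 0.10 and 0.12 to 0.13. Where no value shows it, the cause was not tested. The shallow control library limits every statement on regions absent from it and on regions found in it alone.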

Other observations

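The share of regions by chromosome was counted for each class. Chromosome 8 held 9.28% of the regions in control only, 10.0% of those in hairpin 4 only and 8.43% of those in hairpin 2 only, against 6.09% of those in all 3 lists. Chromosome 6 held 9.24%, 8.67%, 9.25% and 7.49% in the same order. Chromosome 12 held 7.63%, 7.37%, 4.00% and 4.59%, so hairpin 2 only lay with the shared regions there. Of the 3516 Nup153 DamID sites, 44.9% overlapped no Ring1B region of any of the 3 lists, 18.1% were reached by all 3 and 10.4% by control only. Ring1B in hairpin 2 only was found for 15.0% of all genes and in no list for 71.7%. Of 79 ribosomal protein genes, 14 had Ring1B at the start in hairpin 2 only and 59 in no list, and their median log2 change was -0.33, with both hairpins below control for 64 of 78 tested. Of 30 DNA replication and mitosis genes, 10 had Ring1B in hairpin 2 only and 20 in no list, and both hairpins were above control for 28. Over all tested genes, both hairpins were below control for 29.5% and above it for 55%, and limma called none of these genes.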
